A study of Mus musculus with 3 samples.

Results

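The hepatic stellate cells of livers from mice carrying 4T1 tumours were examined in 3 libraries of single liver cells. Members were droplet barcodes that passed a filter of at least 200 detected genes and at most 20% mitochondrial transcripts. Each had to hold at least 4 of 8 marker genes (Dcn, Reln, Lrat, Colec11, Ecm1, Rgs5, Hand2 and Pdgfrb), with a summed count of 5 or more unique transcripts (UMIs) that also exceeded the summed count of the endothelial genes Stab2, Clec4g and Kdr. Members were thus chosen by their counts of these 11 genes. In all, 1498 of the 28002 deposited barcodes were members, with 629 at day 4, 368 at day 21 and 501 in the control. The libraries held non-parenchymal cells, meaning liver cells other than hepatocytes, which female Balb\c mice gave after liver perfusion and dissociation. 4T1 is a mouse mammary carcinoma line, and its cells had been placed orthotopically 4 or 21 days before, while the control had received PBS. All mice were injected at 8 weeks of age, and the labels give the age as 8 weeks for the day 4 and control samples and 11 weeks for the day 21 sample. There was 1 library per group, and neither the number of mice behind it nor the day on which the control was taken is stated. No comparison between groups therefore has a replicate check, age and tumour time cannot be told apart, and no p-value is given. Intervals cover counting error only and leave out the variation between mice and between cells.

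Stellate cells are the pericytes of the liver sinusoid. In the resting state they hold retinyl esters in lipid droplets, wrap the sinusoidal endothelium, and supply hepatocytes and neighbouring cells with factors such as HGF, R-spondin and BMP ligands. After injury they can lose these stores and become contractile, collagen-producing myofibroblasts, and they also respond to cytokines that act through gp130 and STAT3.

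The members held 5119484 UMIs at day 4, 2317834 at day 21 and 4814370 in the control, with a median per barcode of 7401 at day 4, 5629 at day 21 and 7823 in the control. Of the deposited barcodes, the filter removed 39.96% at day 4, 13.5% at day 21 and 27.0% in the control. Between the libraries, 67 barcode sequences were shared over the 3 pairs, and none of them was a stellate member in both libraries of a pair. The rule genes can only be described. The median summed count of the 8 markers was 273 at day 4, 132.5 at day 21 and 300 in the control. A sum of 5 or 6 was seen in 9 members at day 4, 1 at day 21 and 1 in the control. Just outside the rule, 33 barcodes at day 4, 30 at day 21 and 26 in the control had 3 of the markers. A further 162 at day 4, 42 at day 21 and 103 in the control were left out because their endothelial sum was as high or higher. Barcodes of the second kind held a median of 14.5 stellate and 54.5 endothelial marker UMIs at day 4, 15 and 30 at day 21, and 13 and 52 in the control.

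The label was checked with 15 stellate identity genes that the rule did not use, among them Hgf (hepatocyte growth factor), Des (desmin), Cygb (cytoglobin), Lhx2 and Tcf21 (transcription factors) and Colec10 (a collectin). Their summed level was 8864 counts per 1000000 UMIs (CPM) at day 4, 9005 at day 21 and 8207 in the control. In sinusoidal endothelial barcodes of the same libraries the sum was 443 CPM at day 4, 551 at day 21 and 339.6 in the control, and in Kupffer barcodes it was 81.9 at day 4, 125.5 at day 21 and 114.6 in the control. Each of the 15 was higher in the stellate than in the endothelial barcodes of every library except Gata4, a transcription factor also used by sinusoidal endothelium, at 97.5 CPM at day 4, 86.3 at day 21 and 78.3 in the control. Endothelial barcodes held 202 CPM of it at day 4, 174 at day 21 and 155 in the control. Acta2 (smooth muscle actin, the usual myofibroblast marker) had 4 UMIs at day 4, 7 at day 21 and 4 in the control. The 6 mesothelial genes summed to 22.3 CPM at day 4, 23.7 at day 21 and 8.72 in the control. The 10 portal fibroblast genes summed to 260 CPM at day 4, 300 at day 21 and 255 in the control. In endothelial barcodes they summed to 353 at day 4, 320 at day 21 and 405 in the control. At least 2 of them were found in 25.3% of members at day 4, 25.8% at day 21 and 29.9% in the control. Gas6, the most abundant of the 10, had 143 CPM at day 4, 147 at day 21 and 160 in the control, and Clec3b 65.2 at day 4, 47.5 at day 21 and 51.5 in the control. Some scarcer ones were highest at day 21, which the sum hides. Pi16 had 0.391 CPM at day 4, 15.1 at day 21 and 0.415 in the control, and Dpt 9.77 at day 4, 21.1 at day 21 and 3.74 in the control. Of the 7 smooth muscle genes, Actg2 and Cnn1 were at 0 in every library. Tagln had 146 CPM at day 4, 312 at day 21 and 97.8 in the control. Des, also 1 of the 15 identity genes, had 164 at day 4, 194 at day 21 and 166 in the control.

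Many members also carried transcripts of sinusoidal endothelial cells. Over 9 endothelial genes, the median member held 2194 CPM at day 4, 6468 at day 21 and 1961 in the control. The median endothelial barcode held 17760.0 at day 4, 17399 at day 21 and 17108 in the control. The median Kupffer barcode held 575 at day 4, 779 at day 21 and 622 in the control. The values formed a low and a high peak. Under a limit of 2000 CPM lay 306 of 629 members at day 4 (48.6%, exact 95% interval 44.7 to 52.6%), 116 of 368 at day 21 (31.5%, 26.8 to 36.5%) and 253 of 501 in the control (50.5%, 46.0 to 55.0%). These members are called endothelial-poor here, a limit set after the distribution had been seen. Levels in them are given beside those of all members for some of the genes and lists only. They held more RNA of several other cell types than all members did, as most Kupffer, hepatocyte, erythroid and neutrophil sums below show. Their portal fibroblast genes summed to 228 CPM at day 4, 333 at day 21 and 172 in the control, above all members at day 21 only. The 5 cholangiocyte genes did likewise, with 14.7 at day 4, 50.95 at day 21 and 8.88 in the control. All members held 102 of these at day 4, 17.3 at day 21 and 83.7 in the control. The part of portal fibroblasts was not tested. A stricter rule, with a marker sum at least 3 times the endothelial sum, kept 564 members at day 4, 294 at day 21 and 450 in the control, and under it the day 21 log2 ratio to control was 5.21 for Itih4 and -3.29 for S1pr3.

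**Figure D1:**
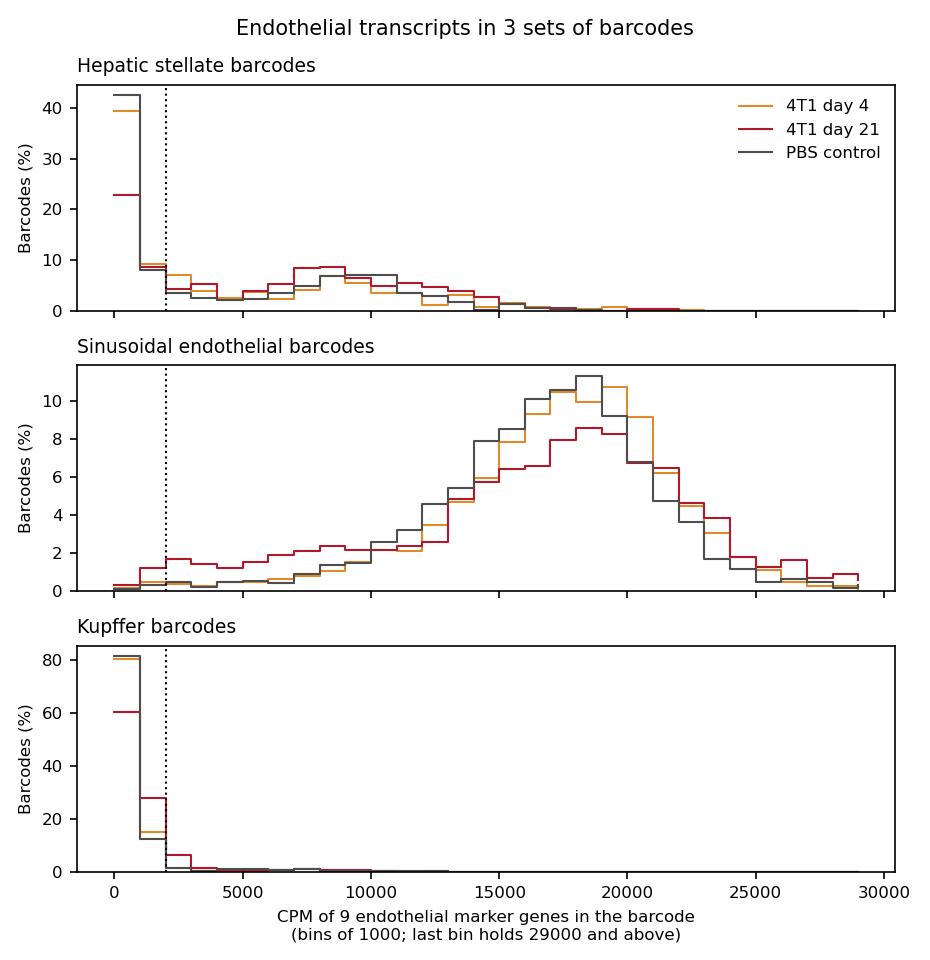
Summed level of 9 endothelial marker genes in each barcode, in CPM, as the percentage of barcodes in bins of 1000, for stellate (top), sinusoidal endothelial (middle) and Kupffer barcodes (bottom) of the 3 libraries; the dotted line marks 2000. The stellate barcodes form 2 peaks in every library, and the low peak holds fewer of them at day 21 (31.5% under the line) than at day 4 (48.6%) and in the control (50.5%).

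Transcripts of other cells moved with the groups as well. The 8 neutrophil genes, led by S100a8 and S100a9, summed to 43.9 CPM in the members at day 4, 36845 at day 21 and 4.99 in the control, and 351 of the 368 day 21 members held at least 2 of them. The other barcodes of those libraries held 3886 at day 4, 193062 at day 21 and 836 in the control. The 9 Kupffer genes, none of them at 0, summed to 3373 CPM at day 4, 956 at day 21 and 1773 in the control. At least 2 of them were found in 23.8% of members at day 4, 20.1% at day 21 and 15.2% in the control. The 10 hepatocyte genes summed to 1477 CPM at day 4, 1186 at day 21 and 2027 in the control, and the 5 erythroid genes to 3289 at day 4, 773 at day 21 and 2837 in the control. The endothelial-poor members carried more of this RNA than all members for most of these lists. Their neutrophil genes summed to 19.2 CPM at day 4, 60271 at day 21 and 7.699 in the control, and their Kupffer genes to 6593 at day 4, 1447 at day 21 and 3492 in the control. Their hepatocyte genes summed to 1799 CPM at day 4, 2405 at day 21 and 2436 in the control, and their erythroid genes to 6780 at day 4, 832 at day 21 and 4331 in the control. Among the sums of this paragraph, only the day 4 neutrophil sum was below that of all members. Scrublet, which scores barcodes for mixtures of 2 cells, called 17 members at day 4 (2.703%), 57 at day 21 (15.5%) and 7 in the control (1.397%), and they were kept. Genes whose level in the members was under 0.5 of that in the remaining barcodes of the library are marked below, by name or count. In the lists this covers genes 2-fold or more higher or lower over all members.

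Stellate barcodes made up 11.4% of the kept barcodes at day 4 (629 of 5509, exact 95% interval 10.6 to 12.3%), 3.45% at day 21 (368 of 10670, 3.11 to 3.81%) and 10.6% in the control (501 of 4734, 9.72 to 11.5%). The day 4 share was 1.08 times the control share (0.966 to 1.20) and the day 21 share 0.326 times (0.286 to 0.371), which is 3.07-fold lower. Sinusoidal endothelial barcodes stood at 0.317 of their control share at day 21, so that the stellate barcodes per 100 endothelial ones numbered 28.6 at day 4, 24.8 at day 21 and 24.2 in the control. Relative to endothelial barcodes the day 21 library held 1.03 times as many as the control (0.884 to 1.19). Shares depend on which cells survived perfusion, dissociation and the filter, and fewer stellate cells cannot be told apart from more of the other cells.

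At day 21 Itih4, Cyr61, Timp1, Serpina3n and Ccl2 were among the genes highest relative to the control in the stellate barcodes, and Zbtb16, Ddit4 and S1pr3 among the lowest. Of 11503 genes with at least 20 UMIs over the 2 libraries, 919 were 2-fold or more higher (7.99%) and 584 were 2-fold or more lower (5.08%), 1503 in all (13.1%), with a median log2 ratio of 0.04. Among the endothelial-poor members 9232 genes were measured, with 854 higher (9.25%) and 831 lower (9.001%). List counts given below for endothelial-poor members at day 21 are to be read beside these shares, not those of all members. These counts describe 2 libraries and are not counts of significant genes. The genes named first are the 10 highest and 10 lowest that had 50 or more UMIs, were found in at least 10% of the members of the higher library, and had a level of at least 0.5 of that in its other barcodes.

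Itih4 (chr14:30886476-30902353, GRCm38), an acute-phase member of the inter-alpha-trypsin inhibitor heavy chain family, had 21.5 CPM at day 4, 641 at day 21 and 18.7 in the control. The log2 ratio of day 21 to control was 5.09 (95% interval 4.79 to 5.42), and the endothelial-poor members held 25.05 at day 4, 581 at day 21 and 16.6 in the control. Endothelial barcodes stood at 14.9 at day 4, 18.8 at day 21 and 12.9 in the control and Kupffer barcodes at 23.03 at day 4, 21.998 at day 21 and 18.1 in the control, so the day 21 level stood out in the stellate barcodes among these 3 sets. Cyr61 (chr3:145646976-145649981), a matricellular protein also called CCN1, had 17.97 CPM at day 4, 529 at day 21 and 19.5 in the control, a log2 ratio of 4.75 (95% interval 4.46 to 5.08). Its endothelial level was also highest at day 21, with 6.56 at day 4, 41.3 at day 21 and 18.1 in the control.

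Timp1 (chrX:20870166-20874735), an inhibitor of matrix metalloproteinases, had 21 UMIs at day 4, 79 at day 21 and 4 in the control. In CPM these were 4.102 at day 4, 34.1 at day 21 and 0.831 in the control, and its log2 ratio was 5.20 (95% interval 3.95 to 7.27). Serpina3n, an acute-phase inhibitor of serine proteases, had 3.91 CPM at day 4, 124 at day 21 and 4.99 in the control, with a log2 ratio of 4.61 (95% interval 4.03 to 5.30). It was also higher at day 21 in endothelial barcodes, at 5.21 at day 4, 60.1 at day 21 and 8.801 in the control. Ccl2, the main chemokine for monocytes, had 19.9 CPM at day 4, 227 at day 21 and 9.97 in the control, with log2 ratios of 4.50 (95% interval 4.08 to 4.97) at day 21 and 0.99 (95% interval 0.49 to 1.53) at day 4. All 3 genes were higher still at day 21 in the endothelial-poor members, with 54.04 CPM for Timp1, 131 for Serpina3n and 378 for Ccl2.

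Bcl3, a nuclear member of the IkB family, had 11.3 CPM at day 4, 51.3 at day 21 and 4.36 in the control, with log2 ratios of 3.53 (95% interval 2.88 to 4.30) at day 21 and 1.36 (95% interval 0.63 to 2.17) at day 4. Endothelial barcodes had similar levels, with 10.2 at day 4, 46.4 at day 21 and 5.901 in the control. Ankrd55 (chr13:112288451-112384002), an ankyrin repeat protein, had 24.03 CPM at day 4, 161 at day 21 and 17.9 in the control, with a log2 ratio of 3.16 (95% interval 2.83 to 3.53), and was low in the other sets. Endothelial barcodes held 2.22 at day 4, 3.39 at day 21 and 1.5001 in the control, Kupffer barcodes 0.6896 at day 4, 1.29 at day 21 and 0 in the control, and all other barcodes of each library 1.89 at day 4, 0.9996 at day 21 and 1.49 in the control. Bdnf, a neurotrophin, had 8.204 CPM at day 4, 22.9 at day 21 and 1.25 in the control, but 85.7% of its day 4 UMIs lay in 1 barcode.

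The other 2 of the 10 highest genes were more abundant in other barcodes. Selp, the adhesion molecule P-selectin, had 3.13 CPM at day 4, 57.8 at day 21 and 3.32 in the control in the members. The endothelial-poor members held 0 at day 4, 20.1 at day 21 and 0.592 in the control, and endothelial barcodes 10.1 at day 4, 109 at day 21 and 11.6 in the control. Hdc, the enzyme that makes histamine, had 17.8 CPM at day 4, 110.02 at day 21 and 11.8 in the control in the members. The other barcodes of each library held 51.8 at day 4, 213 at day 21 and 38.4 in the control. Its level was thus below that of the remaining barcodes in all 3 libraries.

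**Figure D2:**
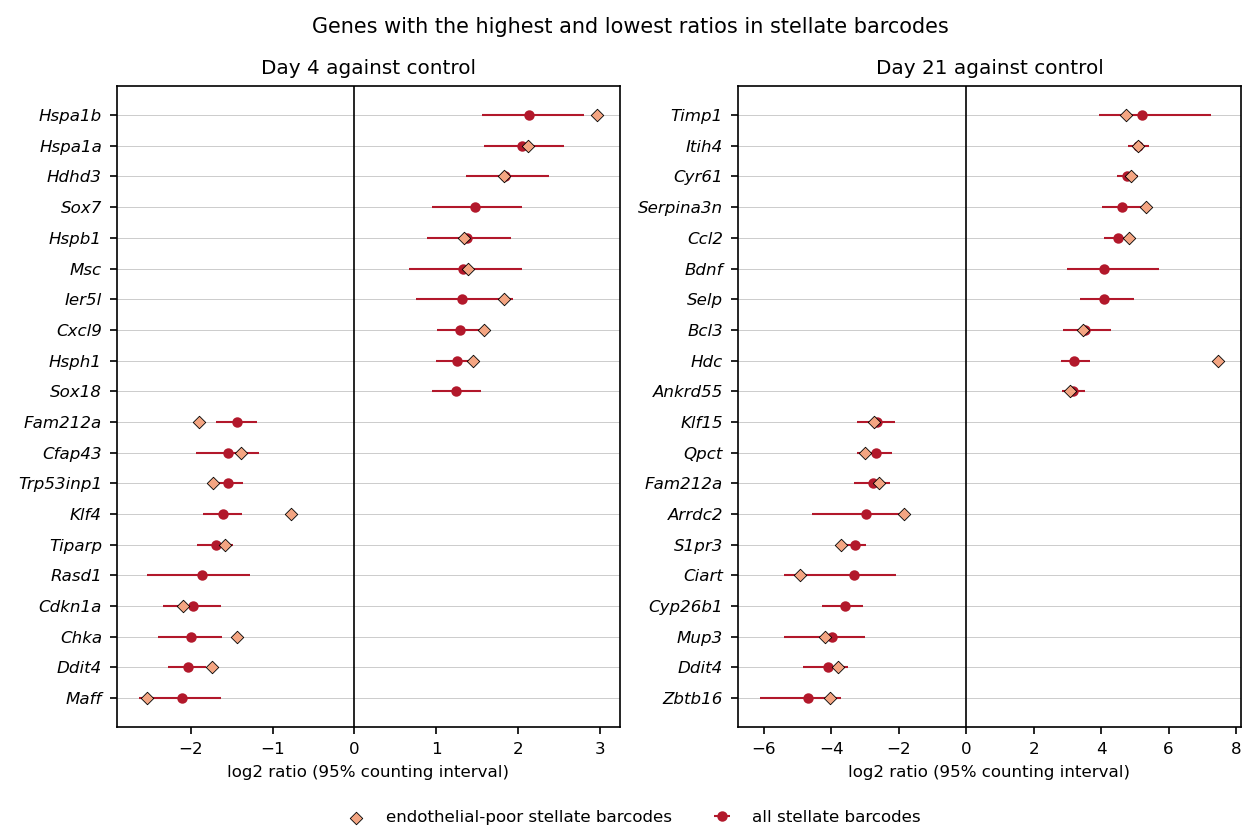
Log2 ratios of the 10 highest and 10 lowest genes by the naming rule, day 4 against control (left) and day 21 against control (right); circles are all stellate barcodes with 95% counting intervals, diamonds the endothelial-poor ones where the gene had at least 20 UMIs over both libraries. Itih4 lies at 5.09 in all members and 5.11 in the endothelial-poor ones, and S1pr3 at -3.31 and -3.71; Sox7, Sox18, Rasd1, Bdnf, Selp and Cyp26b1 have no diamond.

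On the lower side, Zbtb16 (chr9:48654297-48836222), a transcription factor also called PLZF that glucocorticoids induce, had 288 UMIs at day 4, 7 at day 21 and 398 in the control, which is 56.3 CPM at day 4, 3.02 at day 21 and 82.7 in the control. Its log2 ratio was -4.68 (95% interval -6.10 to -3.72) at day 21 and -0.55 (95% interval -0.78 to -0.33) at day 4, and it was nearly absent from endothelial barcodes, at 2.02 at day 4, 0.635 at day 21 and 1.6001 in the control. S1pr3 (chr13:51408639-51422797), a receptor for sphingosine 1-phosphate, had 114 CPM at day 4, 28.5 at day 21 and 284 in the control, with log2 ratios of -1.31 (95% interval -1.45 to -1.17) at day 4 and -3.31 (95% interval -3.69 to -2.96) at day 21. Endothelial and Kupffer barcodes held at most 1.896 CPM of it in every library. The control was highest and day 21 lowest, and the endothelial-poor members gave the same order at 127 at day 4, 24.7 at day 21 and 332 in the control.

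Ddit4, an inhibitor of mTORC1 induced by stress and steroids, had 38.5 CPM at day 4, 9.06 at day 21 and 159 in the control, with log2 ratios of -2.04 (95% interval -2.28 to -1.82) at day 4 and -4.10 (95% interval -4.83 to -3.51) at day 21. It was lower in endothelial barcodes too, at 49.9 at day 4, 18.6 at day 21 and 182 in the control, and in Kupffer barcodes, at 91.6 at day 4, 33.2 at day 21 and 176 in the control. Qpct, glutaminyl-peptide cyclotransferase, had 86.3 CPM at day 4, 14.7 at day 21 and 94.7 in the control, a log2 ratio of -2.67 (95% interval -3.24 to -2.19), with levels at day 4 and in the control close to each other. Klf15, a transcription factor under glucocorticoid control, had 53.1 at day 4, 13.4 at day 21 and 84.1 in the control and was lower in endothelial barcodes as well, at 16.2 at day 4, 3.81 at day 21 and 45.7 in the control.

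Fam212a, an inhibitor of the kinase PAK4 also called INKA1, had 35.7 CPM at day 4, 14.2 at day 21 and 97.2 in the control. Ciart, a circadian repressor, had 8.59 at day 4, 1.73 at day 21 and 19.3 in the control, and Arrdc2, an arrestin-domain protein, 10.2 at day 4, 2.59 at day 21 and 22.02 in the control. For all 3 the control was highest and day 21 lowest. Cyp26b1, which breaks down retinoic acid, had 119.5 CPM at day 4, 10.4 at day 21 and 128 in the control among all members. In the endothelial-poor ones it had 16.2 at day 4, 1.54 at day 21 and 10.1 in the control, and in endothelial barcodes, where it was far more abundant, 292 at day 4, 17.6 at day 21 and 307 in the control. Mup3, a urinary protein made by hepatocytes, had 35.7 CPM at day 4, 3.02 at day 21 and 50.9 in the control in the members. The other barcodes held 118 at day 4, 7.68 at day 21 and 71.1 in the control.

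**Figure D3:**
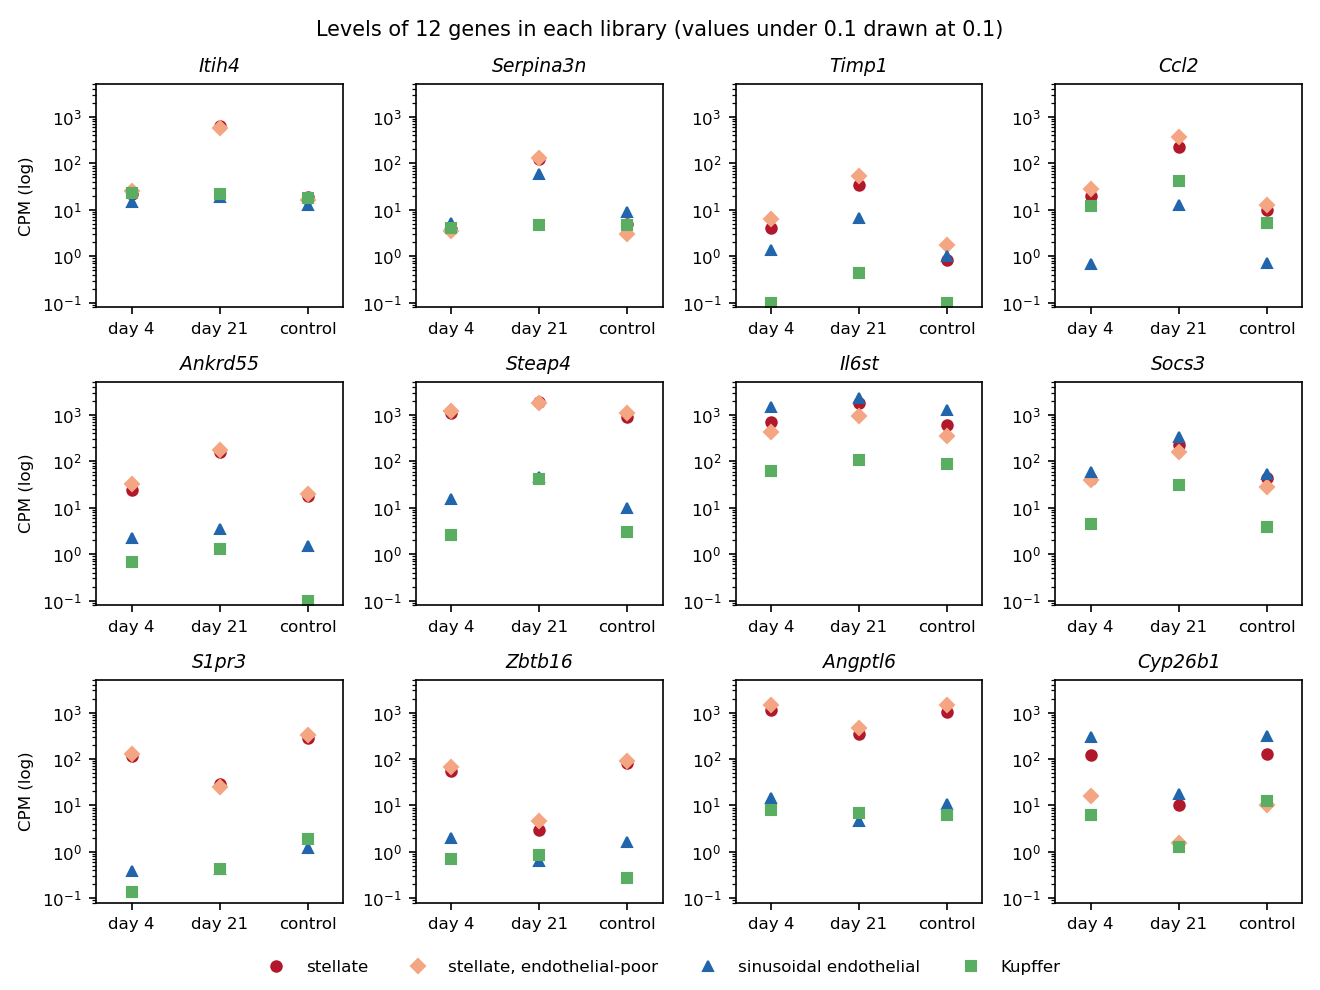
CPM (log axis) of 12 genes in all stellate, endothelial-poor stellate, sinusoidal endothelial and Kupffer barcodes at day 4, at day 21 and in the control. Itih4 and Ankrd55 stand apart from the other sets in the day 21 stellate barcodes (641 and 161), S1pr3 and Zbtb16 are lowest there in stellate barcodes (28.5 and 3.02), and Cyp26b1 is highest in endothelial barcodes.

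To see how many barcodes carried these changes, each barcode was thinned to 3000 UMIs, which left out 93 members at day 4, 75 at day 21 and 81 in the control that were shallower. Itih4 was then detected in 6.72% (4.75 to 9.18%) at day 4, 59.4% (53.5 to 65.1%) at day 21 and 4.76% (2.93 to 7.26%) in the control, where the unthinned shares were 14.8% at day 4, 70.1% at day 21 and 14.4% in the control. Endothelial barcodes of that depth gave 3.34% at day 4, 2.297% at day 21 and 2.54% in the control for the same gene. Most day 21 members thus held an Itih4 transcript. S1pr3 was detected in 26.7% (22.98 to 30.6%) at day 4, 6.14% (3.68 to 9.54%) at day 21 and 51.4% (46.5 to 56.3%) in the control, with 47.7% at day 4, 14.4% at day 21 and 72.1% in the control unthinned. In endothelial barcodes the share was at most 0.282%. Ccl2 was found in fewer members, 4.29% (2.74 to 6.37%) at day 4, 26.6% (21.6 to 32.1%) at day 21 and 2.62% (1.31 to 4.64%) in the control, and in 35.1% of day 21 members unthinned.

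Among 85 endothelial-poor day 21 members of that depth, Ccl2 was found in 21 of the 46 with Itih4 (45.7%) and in 11 of the 39 without it (28.2%). Serpina3n was found in 15 of the 46 (32.6%) and in 10 of the 39 (25.6%). These shares are within 1 library and describe its barcodes.

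Genes of the STAT3 and acute-phase list had a median log2 ratio of 2.37 over 15 measured members at day 21, with 9 that were 2-fold or more higher (7.99% of all genes) and 1 lower (5.08%). Of those 9, 5 stood under 0.5 of the level in the other barcodes, among them Lcn2 (lipocalin 2) and Lrg1, a secreted glycoprotein. Lcn2 had 0.781 CPM at day 4, 1074 at day 21 and 0.831 in the control in the members, and 66.4 at day 4, 5603 at day 21 and 16.9 in the control in the other barcodes. Lrg1 had 5.27 CPM at day 4, 252 at day 21 and 4.36 in the control in the members, and 42.3 at day 4, 723 at day 21 and 17.4 in the control in the other barcodes. Both were lower in the members than in the other barcodes at every time. Socs3, the feedback inhibitor of gp130 signalling, had 41.4 CPM at day 4, 223 at day 21 and 43.2 in the control, a log2 ratio of 2.37 (95% interval 2.13 to 2.61). The endothelial-poor members held 38.8 at day 4, 161 at day 21 and 27.8 in the control. Endothelial barcodes had higher levels, with 57.9 at day 4, 329 at day 21 and 54.005 in the control. Over the endothelial-poor members the list median was 1.95, in endothelial barcodes 2.20 and in Kupffer barcodes 0.79. At day 4 the stellate median was -0.06, and both comparisons share the control library.

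Promoter sequences are shown for Itih4, the gene with the largest day 21 count among the highest 10, and Socs3, because both were high at day 21 and hold the palindrome TTCNNNGAA to which STAT proteins are known to bind. They run from 250 bases before to 50 bases after the gene start (RefSeq, GRCm38.p6), 5′ to 3′ on the strand of the gene, and capitals mark the motif, at 51 and 154 bases before the start. The Itih4 window lies at chr14:30886226-30886525, plus strand, and the Socs3 window at chr11:117969317-117969616, minus strand.
Itih4: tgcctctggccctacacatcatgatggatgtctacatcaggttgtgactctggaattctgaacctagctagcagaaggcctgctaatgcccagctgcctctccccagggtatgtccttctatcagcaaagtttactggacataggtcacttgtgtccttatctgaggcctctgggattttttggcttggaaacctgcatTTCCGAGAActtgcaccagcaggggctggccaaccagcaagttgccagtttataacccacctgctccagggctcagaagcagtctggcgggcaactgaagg
Socs3: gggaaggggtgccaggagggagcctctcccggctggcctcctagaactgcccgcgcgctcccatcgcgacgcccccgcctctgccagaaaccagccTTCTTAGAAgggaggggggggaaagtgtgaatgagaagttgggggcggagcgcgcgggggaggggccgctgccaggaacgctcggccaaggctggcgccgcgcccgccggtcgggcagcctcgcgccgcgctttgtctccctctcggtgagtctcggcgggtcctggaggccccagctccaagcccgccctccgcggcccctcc
TTCNNNGAA reads the same on both strands. It was found in 8.30% of all 32851 promoter windows searched and in at least 1 window of 9.55% of genes. Counted by gene, it was in at least 1 window of 2 of the 8 matched among the 10 highest day 21 genes (Itih4 and Bdnf, which has 7 windows), and of 2 of the 13 matched in the STAT3 and acute-phase list. It was also in 6 of the 22 matched in the type I interferon-stimulated list, described below as lower at day 21. Among the 10 lowest day 21 genes it was in 0 of the 8 matched. A match describes the letters of the window and is not shown to be a bound site.

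Several cytokine receptor genes were higher at day 21. Il6st (gp130, the shared signal chain of interleukin 6, oncostatin M and LIF) had 702 CPM at day 4, 1798 at day 21 and 612 in the control, with a log2 ratio of 1.55 (95% interval 1.49 to 1.62). The endothelial-poor members held 421 at day 4, 925 at day 21 and 351 in the control. Osmr (the oncostatin M receptor) had 53.1 CPM at day 4, 115 at day 21 and 44.7 in the control. Il1r1 (the interleukin 1 receptor) had 90.8 at day 4, 164 at day 21 and 74.98 in the control. Il17ra, a chain of the interleukin 17 receptor, had 10.4 at day 4, 66.4 at day 21 and 10.4 in the control, with a log2 ratio of 2.67 (95% interval 2.21 to 3.17) in all members and 1.54 in the endothelial-poor ones. Over 18 measured cytokine receptor genes, 4 were 2-fold or more higher and 0 lower (7.99 and 5.08% of all genes), with a median of 0.35 in all members and -0.0045 in the endothelial-poor ones. Il6st, Osmr and Il1r1 were also present in endothelial barcodes, at 1446 at day 4, 2245 at day 21 and 1280.01 in the control for Il6st.

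Of 15 measured chemokine and cytokine genes, 4 were 2-fold or more higher at day 21 and 3 lower (7.99 and 5.08% of all genes). These were 4 and 2 of 14 in the endothelial-poor members. Of the 3 lower in all members, 1 stood under 0.5 of the level in the other barcodes. Besides Ccl2, Cxcl1, a chemokine for neutrophils, had 8.59 CPM at day 4, 52.6 at day 21 and 13.9 in the control and a log2 ratio of 1.91 (95% interval 1.48 to 2.37). Il33, an alarmin, had 33.8 at day 4, 89.7 at day 21 and 29.3 in the control, with a log2 ratio of 1.61 in all members and 0.64 in the endothelial-poor ones. Csf1, the growth factor of macrophages, had 164 at day 4, 266 at day 21 and 143 in the control, below a 2-fold difference. Cxcl12, which retains blood-forming and lymphoid cells, was abundant in all 3 libraries at 2857 at day 4, 2275 at day 21 and 2538 in the control, and Il34, another ligand of the CSF1 receptor, had 63.9 at day 4, 32.4 at day 21 and 52.8 in the control. Cxcl10, an interferon-induced chemokine, had 44.1 at day 4, 22.4 at day 21 and 57.3 in the control, and 35.4% of its UMIs at day 4, 19.2% at day 21 and 38.04% in the control lay in 1 barcode.

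Of 14 measured complement genes, 11 were above 0 on the log2 scale at day 21. Of the 14, 2 were 2-fold or more higher and 0 lower (7.99 and 5.08% of all genes). The median was 0.48 in all members, 0.40 in the endothelial-poor ones, 0.10 in endothelial barcodes and -0.16 in Kupffer barcodes. C4b, a component of the classical pathway, had 125 CPM at day 4, 223 at day 21 and 91.8 in the control, and C3, the central component, 71.3 at day 4, 125 at day 21 and 51.5 in the control. Of the C3 UMIs, 26.3% at day 4, 24.9% at day 21 and 10.9% in the control lay in 1 barcode. Serping1, the C1 inhibitor, had 681 at day 4, 1047 at day 21 and 578 in the control, a log2 ratio of 0.86 (95% interval 0.78 to 0.94), and little of it was seen in endothelial barcodes, at 12.6 at day 4, 16.9 at day 21 and 11.3 in the control.

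Type I interferon-stimulated genes were lower at day 21 and slightly higher at day 4. The median log2 ratio was 0.29 over 31 measured genes at day 4, with 27 above 0 and none past 2-fold in either direction. At day 21 it was -0.64 over 30, with 25 below 0, 7 of them 2-fold or more lower, and 0 higher (5.08 and 7.99% of all genes). Endothelial barcodes had medians of 0.45 and -0.51, and Kupffer barcodes 0.30 and -0.41. Ifit1, an RNA-binding antiviral protein, had 90.6 CPM at day 4, 25.02 at day 21 and 51.5 in the control. Irf7, a transcription factor of the interferon response, had 202 at day 4, 62.6 at day 21 and 131 in the control, and Ifi27l2a, the most abundant of those named here, 2008 at day 4, 815 at day 21 and 1478 in the control. Isg15, a ubiquitin-like modifier, had 242 CPM at day 4, 107 at day 21 and 188 in the control. Ifit3 had 134 at day 4, 50.05 at day 21 and 112 in the control, and Usp18, which removes ISG15 from proteins, 33.2 at day 4, 14.2 at day 21 and 44.5 in the control. Each of these was lowest at day 21, and in the endothelial-poor members Irf7 had 318 at day 4, 81.8 at day 21 and 177 in the control. Ifit3 and Ifit3b are near-identical copies and their split is uncertain. Rsad2 (viperin) had 54.5 CPM at day 4, 14.7 at day 21 and 49.9 in the control over all members. The endothelial-poor members held 31.4 at day 4, 20.1 at day 21 and 12.4 in the control, where the day 21 level was above the control.

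The promoters of Isg15 and Ifit3 are shown as examples of the interferon motif GAAA, any 2 bases, GAAA, which 13 of 22 matched genes of this list held on either strand, against 3.44% of all 32851 windows and 3.99% of genes. Capitals mark the matches, and in Isg15 the 3 matches overlap. The windows lie at chr4:156200769-156201068, minus strand for Isg15, and at chr19:34583279-34583578, plus strand for Ifit3 (RefSeq, GRCm38.p6).
Isg15: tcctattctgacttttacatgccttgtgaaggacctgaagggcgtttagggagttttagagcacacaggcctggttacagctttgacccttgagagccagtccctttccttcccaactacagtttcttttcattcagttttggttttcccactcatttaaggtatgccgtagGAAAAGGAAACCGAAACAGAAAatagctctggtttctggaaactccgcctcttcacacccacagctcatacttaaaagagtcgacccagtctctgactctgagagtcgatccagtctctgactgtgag
Ifit3: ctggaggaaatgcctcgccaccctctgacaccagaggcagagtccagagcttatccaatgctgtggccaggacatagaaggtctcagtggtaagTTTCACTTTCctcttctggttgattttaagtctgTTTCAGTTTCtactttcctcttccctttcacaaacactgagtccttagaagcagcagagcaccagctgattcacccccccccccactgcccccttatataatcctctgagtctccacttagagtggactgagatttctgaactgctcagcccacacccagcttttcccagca
Of the 8 matched genes among the 10 highest at day 21, 1 held this motif in at least 1 window.

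Genes that mark resting stellate cells moved in different directions at day 21. Of the 15 identity genes, 1 was 2-fold or more higher and 1 lower, with a median of 0.08 in all members and -0.24 in the endothelial-poor ones, in which 4 were 2-fold or more lower. Steap4, a metalloreductase, had 1076 CPM at day 4, 1917 at day 21 and 881 in the control, with a log2 ratio of 1.12 (95% interval 1.06 to 1.18), and the endothelial-poor members held 1183 at day 4, 1797 at day 21 and 1109 in the control. Angptl6, a secreted angiopoietin-like protein, had 1125 CPM at day 4, 347 at day 21 and 1013 in the control, a log2 ratio of -1.54 (95% interval -1.65 to -1.44). Vipr1, a receptor for vasoactive intestinal peptide, had 867 CPM at day 4, 459 at day 21 and 889.6 in the control. Lhx2, a transcription factor that restrains stellate activation in mice, had 253 at day 4, 139 at day 21 and 259.6 in the control, and Gdf2 (BMP9, a ligand for endothelial cells) 735 at day 4, 421 at day 21 and 692 in the control. Angptl6, Vipr1, Lhx2 and Gdf2 were lowest at day 21, while Tcf21 had 306 at day 4, 325 at day 21 and 210.2 in the control. Hgf had 563 CPM at day 4, 648 at day 21 and 612 in the control over all members and 671 at day 4, 522 at day 21 and 757 in the control in the endothelial-poor ones. In endothelial barcodes Hgf stood at 25.8 at day 4, 192 at day 21 and 22.3 in the control, highest at day 21.

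Genes of retinoid handling, the hallmark of the resting cell, had a median of -0.38 over 12 measured at day 21, with 2 that were 2-fold or more higher and 2 lower (7.99 and 5.08% of all genes). Among the endothelial-poor members it was -0.54 over 11 measured, with 2 higher and 5 lower (9.25 and 9.001% of all genes measured in them). Aldh1a3, which makes retinoic acid, had 4.297 CPM at day 4, 34.5 at day 21 and 5.401 in the control, with a log2 ratio of 2.66 (95% interval 2.02 to 3.37). Rdh10, which makes its precursor retinal, had 18.4 at day 4, 31.1 at day 21 and 13.5 in the control. Rxra, a nuclear receptor for retinoids, had 158 at day 4, 86.7 at day 21 and 179.9 in the control. Lrat, the enzyme that esterifies retinol, belongs to the membership rule and is not compared.

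Collagen genes as a list differed little over all members. Of 14 measured collagen genes, 1 was 2-fold or more higher at day 21 and 1 lower (7.99 and 5.08% of all genes), with a median of -0.11. At day 4 none passed 2-fold in either direction, with a median of 0.12. The day 21 median in the endothelial-poor members was -0.41, with 0 higher and 1 lower. Genes of matrix processing and turnover had a day 21 median of -0.18 over 19 measured, with 2 higher and 3 lower (7.99 and 5.08% of all genes) and 12 below 0. In the endothelial-poor members the median was -0.42. Matrix glycoproteins and proteoglycans had medians of -0.01 over all members and -0.31 in the endothelial-poor ones. Col1a1, a chain of type I collagen, had 109 CPM at day 4, 111 at day 21 and 70.2 in the control, but 29.96% of its day 21 UMIs lay in 1 barcode. Col3a1 had 930.2 at day 4, 813 at day 21 and 661 in the control, and Col1a2 515 at day 4, 429 at day 21 and 431 in the control. Col5a2, the gene past 2-fold, had 90.4 CPM at day 4, 157 at day 21 and 68.1 in the control. Fn1 (fibronectin) had 262 CPM at day 4, 619 at day 21 and 188 in the control, a log2 ratio of 1.72 (95% interval 1.60 to 1.84). The endothelial-poor members held 271 at day 4, 661 at day 21 and 238 in the control, again with day 21 highest. Ctgf (CCN2), a matricellular protein induced by TGF-beta and by mechanical load, had 98.8 at day 4, 280.4 at day 21 and 60.2 in the control in all members and 87.9 at day 4, 295 at day 21 and 17.8 in the control in the endothelial-poor ones.

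Of 10 measured genes of the contractile and myofibroblast list, 3 were 2-fold or more higher at day 21 and 0 lower (7.99 and 5.08% of all genes). The median was only 0.15, with 5 genes above 0 and 5 below, so the list as a whole did not rise. The counts were the same in the endothelial-poor members. Tagln (transgelin, an actin-binding protein of smooth muscle) had 146 CPM at day 4, 312 at day 21 and 97.8 in the control, with a log2 ratio of 1.67 (95% interval 1.51 to 1.85). In the endothelial-poor members Tagln had 206 at day 4, 494 at day 21 and 158 in the control. The 7 smooth muscle genes summed to 317 CPM at day 4, 517 at day 21 and 274 in the control over all members. Most of each sum was Tagln itself and Des, which is also a stellate identity gene. The next most abundant, Myh11, had 5.66 at day 4, 6.90 at day 21 and 8.72 in the control. The part of smooth muscle cells was not tested. Tpm1 (tropomyosin) had 150.01 at day 4, 274 at day 21 and 134 in the control. The third, S100a6, had 29.7 at day 4, 812 at day 21 and 27.6 in the control in the members. The other barcodes held 246 at day 4, 4168 at day 21 and 201 in the control, so its level was below theirs throughout. Acta2 stayed near 0 as given above, and a count of at most 7 UMIs gives no usable ratio. Timp3, another metalloproteinase inhibitor, had 269.6 at day 4, 179 at day 21 and 399 in the control over all members. It was most abundant in endothelial barcodes, with 546 at day 4, 264 at day 21 and 799 in the control, and the endothelial-poor members held 149.8 at day 4, 129.7 at day 21 and 185 in the control.

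Secreted growth factors had a median of -0.10 over 21 measured genes, with 3 that were 2-fold or more higher and 1 lower at day 21 (7.99 and 5.08% of all genes). Their endothelial-poor median was -0.31, with 3 higher and 3 lower of 20. Rspo3, the R-spondin that amplifies WNT signals to hepatocytes near the central vein, had 639.5 CPM at day 4, 399 at day 21 and 667 in the control, with a log2 ratio of -0.74 (95% interval -0.85 to -0.64). Rspo3 in the endothelial-poor members had 770.1 at day 4, 355 at day 21 and 849 in the control. Igfbp3, a binding protein of insulin-like growth factors, had 695 CPM at day 4, 321 at day 21 and 547 in the control. Bmp10, another ligand for endothelial cells, had 130.3 at day 4, 77.2 at day 21 and 104 in the control. Igfbp5 and Igfbp6 were carried by few barcodes, with 95.8 and 51.2% of their day 21 UMIs in 1 barcode, and are not compared. Among receptors, Lpar1, a receptor for lysophosphatidic acid, had 26.96 at day 4, 7.77 at day 21 and 30.1 in the control, a log2 ratio of -1.92 (95% interval -2.75 to -1.24). S1pr2, another sphingosine 1-phosphate receptor, had 12.1 CPM at day 4, 14.2 at day 21 and 6.44 in the control and was 2-fold or more higher. S1pr3 and Lpar1 were the 2 lower genes, and S1pr2 the 1 higher gene, of 16 measured receptor genes (5.08 and 7.99% of all genes).

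Stellate cells near the portal and central veins are known in mice to differ, with Ngfr, the p75 neurotrophin receptor, and Igfbp3 on the portal side and Adamtsl2, a matrix protein, on the central side. Ngfr had 79.7 CPM at day 4, 72.9 at day 21 and 84.5 in the control, and Adamtsl2 64.1 at day 4, 119.5 at day 21 and 77.1 in the control. In endothelial-poor members thinned to 3000 UMIs, Ngfr was found in 2 of 39 Adamtsl2-positive barcodes at day 4, 0 of 17 at day 21, and 7 of 50 in the control. In the Adamtsl2-negative ones it was found in 23.01% at day 4, 22.1% at day 21 and 30.1% in the control. Igfbp3 was found in 81.5% of the Ngfr-positive barcodes at day 4, 80% at day 21 and 83.3% in the control, against 57.8% at day 4, 35.7% at day 21 and 52.6% in the control of the Ngfr-negative ones. Ngfr and Adamtsl2 were thus seldom detected together in any of the 3 libraries. In the order day 4, day 21 and control, Igfbp3 was found in 46.2, 41.2 and 38% of Adamtsl2-positive barcodes. The Adamtsl2-negative ones gave 65.5, 44.1 and 67.9%, so the day 21 shares were close. In the same order Igfbp3 was found in 66.8, 48.9 and 62.9% of Rspo3-positive barcodes and in 46.3, 37.5 and 48.4% of Rspo3-negative ones. It was thus more frequent with Rspo3, named above for its role near the central vein. Over the 6 central and 6 portal genes of the lists, no median passed 2-fold, with -0.15 and -0.45 at day 21.

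Glucocorticoid-responsive genes were lower at both times. Of 17 measured, 8 were 2-fold or more lower and 1 higher at day 4 (1.81 and 1.71% of 11818 genes measured in that comparison), with a median of -0.94. Likewise 8 were lower and 1 higher at day 21 (5.08 and 7.99% of all genes), with a median of -0.92. The endothelial-poor members had medians of -0.70 at day 4 and -1.58 at day 21. Endothelial barcodes had -0.94 and -0.71, and the Kupffer barcodes -0.50 and -0.89. Fkbp5, a co-chaperone of the glucocorticoid receptor, had 88.5 CPM at day 4, 45.7 at day 21 and 170.1 in the control, with log2 ratios of -0.94 (95% interval -1.11 to -0.78) and -1.89 (95% interval -2.20 to -1.60). Errfi1, a feedback inhibitor of EGF receptors, had 177 at day 4, 69.9 at day 21 and 376 in the control. The metallothioneins Mt1 and Mt2, which bind zinc, took another course. Mt1 had 569 CPM at day 4, 1239 at day 21 and 1308 in the control, and Mt2 98.4 at day 4, 359 at day 21 and 247 in the control, both lowest at day 4 and near or above the control at day 21.

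Circadian clock genes had a median of -0.05 at day 4 and -0.59 at day 21. At day 21, 5 of 15 measured were 2-fold or more lower and 2 higher (5.08 and 7.99% of all genes). Of the 2 higher, 1 stood under 0.5 of the level in the other barcodes. Over the endothelial-poor members the day 21 median was -1.42, with 7 of 12 measured lower and 0 higher. Of all genes measured in those members, 9.001% were lower and 9.25% higher. The day 21 median was -0.66 in endothelial barcodes and -0.83 in Kupffer barcodes. Per1 and Cry2, repressors of the clock, had 75.2 CPM at day 4, 44.9 at day 21 and 125 in the control for Per1 and 29.7 at day 4, 14.2 at day 21 and 41.96 in the control for Cry2. Hlf, an output factor of the clock, had 37.9 at day 4, 8.197 at day 21 and 47.4 in the control. The hour of collection is not given in the labels, so time of day and tumour time cannot be told apart.

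Immediate early genes, which respond within minutes to growth factors, stress and cell dissociation, were higher at day 21 and lower at day 4. The median was -0.50 at day 4, with 3 of 21 measured genes 2-fold or more lower and 1 higher (1.81 and 1.71% of all genes). At day 21 it was 1.01, with 11 of 22 higher and 0 lower (7.99 and 5.08% of all genes). In the endothelial-poor members 6 were higher and 1 lower at day 21, with a median of 0.71. Endothelial barcodes had a median of 1.19 and Kupffer barcodes 0.01 at day 21. Among these transcription factors, Egr1 had 104 CPM at day 4, 566 at day 21 and 229 in the control, and Atf3 6.64 at day 4, 28.9 at day 21 and 3.53 in the control. Myc had 9.77 at day 4, 55.2 at day 21 and 9.97 in the control, and Nr4a1 12.3 at day 4, 89.7 at day 21 and 18.7 in the control. Each of the 4 was highest at day 21. The part of dissociation in these levels was not tested.

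Of 16 measured proliferation genes, 12 were 2-fold or more higher at day 21 and 0 lower (7.99 and 5.08% of all genes). The median was 1.56 in all members and 1.62 in the endothelial-poor ones. In 11 of those 12 the level was under 0.5 of that in the other barcodes of the library. Top2a (topoisomerase of dividing cells) had 8.99 CPM at day 4, 69.9 at day 21 and 19.5 in the control in the members. The other barcodes held 31.96 at day 4, 204 at day 21 and 27.3 in the control. Ube2c, a ubiquitin-conjugating enzyme of mitosis, had 6.25 at day 4, 78.5 at day 21 and 11.6 in the control in the members and 18.8 at day 4, 256 at day 21 and 14.9 in the control in the other barcodes. The neutrophil genes stood at 36845 CPM in the same day 21 members, and their part was not tested.

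**Figure D4:**
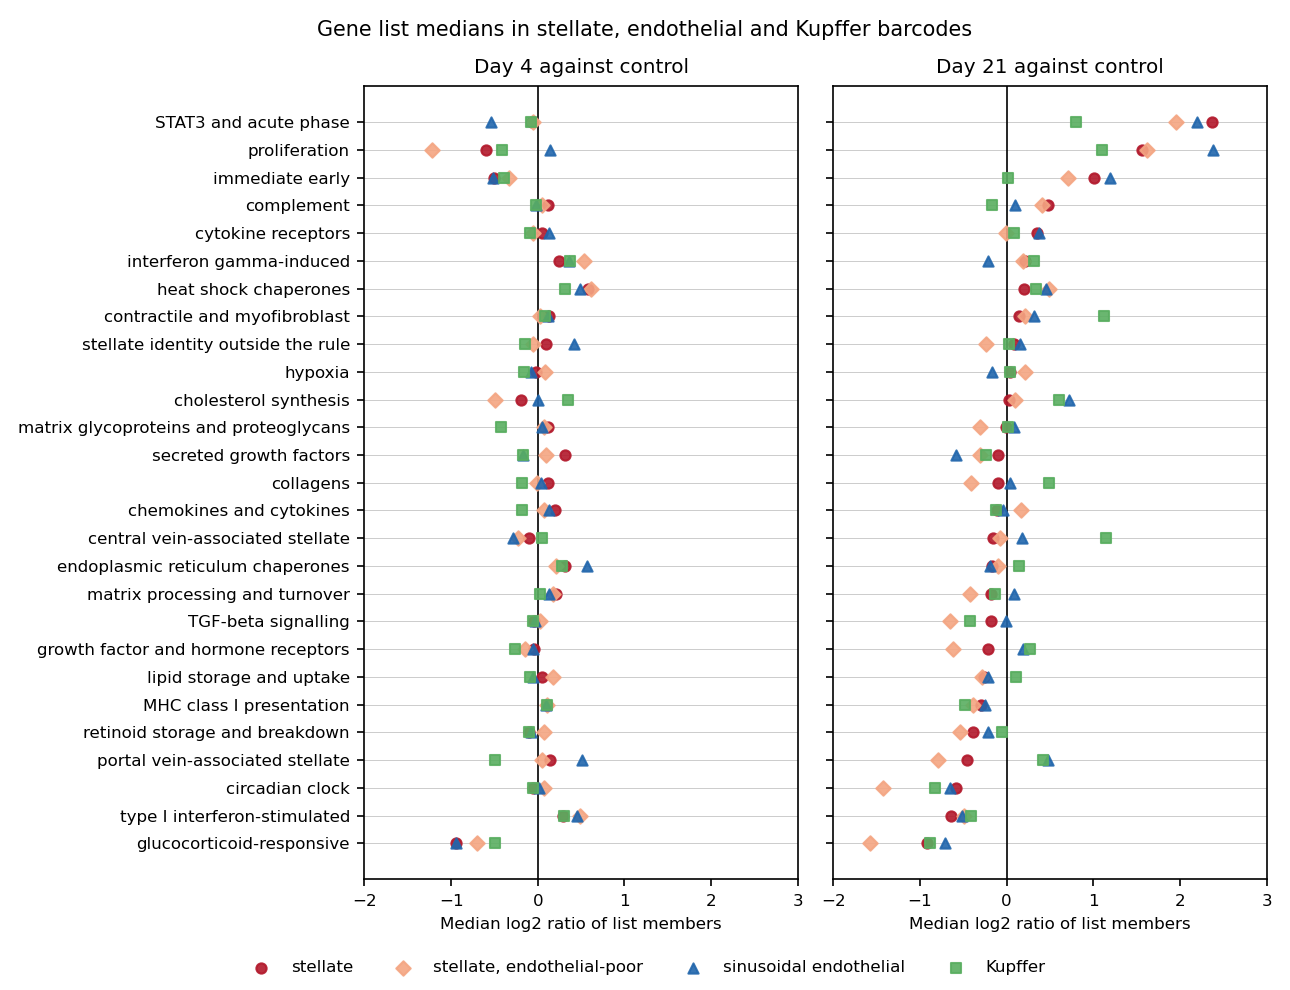
Median log2 ratios of the measured members of 27 gene lists, day 4 against control (left) and day 21 against control (right), in all stellate, endothelial-poor stellate, sinusoidal endothelial and Kupffer barcodes. In the stellate barcodes the STAT3 and acute-phase list lies at 2.37 at day 21 and -0.06 at day 4, while the glucocorticoid-responsive list lies at -0.92 and -0.94.

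Fewer genes were past 2-fold at day 4. Of 11818 measured genes, 202 were 2-fold or more higher (1.71%) and 214 lower (1.81%), 416 in all (3.52%), with a median log2 ratio of 0.02. Heat shock genes were among the highest. Hspa1a and Hspa1b, near-identical genes for the inducible chaperone HSP70 whose split is uncertain, had day 4 log2 ratios of 2.05 (95% interval 1.59 to 2.56) and 2.14 (95% interval 1.56 to 2.80). Hspa1a had 39.1 CPM at day 4, 75.1 at day 21 and 9.35 in the control, and Hspa1b 25.98 at day 4, 52.2 at day 21 and 5.82 in the control, so both were higher at day 21 as well. Hsph1, a co-chaperone of HSP70, had 85.9 CPM at day 4, 37.5 at day 21 and 35.9 in the control, a day 4 log2 ratio of 1.26 (95% interval 1.001 to 1.52), and Hspb1, a small heat shock protein, 24.4 at day 4, 10.8 at day 21 and 9.35 in the control. Of 13 measured heat shock chaperones, 4 were 2-fold or more higher at day 4 and 0 lower (1.71 and 1.81% of all genes). The median was 0.58 in the stellate, 0.49 in the endothelial and 0.31 in the Kupffer barcodes.

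Hdhd3, a haloacid dehalogenase-like protein, had 31.6 CPM at day 4, 20.3 at day 21 and 8.72 in the control, with a day 4 log2 ratio of 1.85 (95% interval 1.36 to 2.38). Hdhd3 in the endothelial-poor members had 42.7 at day 4, 27.8 at day 21 and 11.8 in the control. Msc (musculin), a transcription factor, had 70 UMIs at day 4, 39 at day 21 and 26 in the control, which is 13.7 CPM at day 4, 16.8 at day 21 and 5.401 in the control, and 0 in the endothelial and Kupffer barcodes of every library. Sox7 and Sox18, transcription factors of endothelium, were nearly absent from the endothelial-poor members. Sox18 had 65.05 CPM at day 4, 84.6 at day 21 and 27.4 in the control over all members and 2.95 at day 4, 3.09 at day 21 and 1.78 in the control in the endothelial-poor ones. Endothelial barcodes held 219 at day 4, 197 at day 21 and 94.6 in the control. Sox7 had 22.7 at day 4, 34.5 at day 21 and 8.101 in the control over all members and 1.47 at day 4, 0 at day 21 and 0 in the control in the endothelial-poor ones. Ier5l, a relative of the immediate early gene Ier5, had 17.8 at day 4, 25.02 at day 21 and 7.06 in the control, and endothelial barcodes held more of it, 46.6 at day 4, 33.7 at day 21 and 23.3 in the control. Cxcl9, an interferon gamma-induced chemokine, had 77.2 at day 4, 27.6 at day 21 and 31.6 in the control over all members and 16.7 at day 4, 40.1 at day 21 and 5.33 in the control in the endothelial-poor ones, with 28.4% of its day 4 UMIs in 1 barcode.

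Among the lowest genes at day 4, Maff, a small MAF transcription factor, had 8.59 CPM at day 4, 13.4 at day 21 and 37.4 in the control, a day 4 log2 ratio of -2.11 (95% interval -2.63 to -1.64). Tiparp, an ADP-ribosyltransferase induced by the aryl hydrocarbon receptor, had 45.7 at day 4, 35.4 at day 21 and 149 in the control, with a log2 ratio of -1.70 (95% interval -1.92 to -1.49), and Trp53inp1, a p53-induced regulator of autophagy, 60.4 at day 4, 35.4 at day 21 and 177 in the control. Cdkn1a (the cell cycle inhibitor p21) had 16.6 CPM at day 4, 34.5 at day 21 and 65.6 in the control and a log2 ratio of -1.98 (95% interval -2.35 to -1.63). It was lower at day 4 in endothelial barcodes, at 22.2 at day 4, 72.2 at day 21 and 70.5 in the control, and in Kupffer barcodes, at 40.4 at day 4, 25.9 at day 21 and 279 in the control. Chka, choline kinase, had 13.7 at day 4, 16.8 at day 21 and 55.04 in the control, and Klf4, a transcription factor, 38.9 at day 4, 113 at day 21 and 119 in the control. In the endothelial-poor members Klf4 had 33.4 at day 4, 74.1 at day 21 and 57.4 in the control, a day 4 log2 ratio of -0.78. Cfap43 and Rasd1 were scarce in the endothelial-poor members, which held 3.93 at day 4, 7.72 at day 21 and 10.7 in the control for Cfap43.

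Interferon gamma-induced genes stood at a median of 0.25 over 17 measured at day 4, with 1 that was 2-fold or more higher and 0 lower (1.71 and 1.81% of all genes). Irgm2 and Igtp are guanosine triphosphatases that act against intracellular microbes. Irgm2 had 65.4 CPM at day 4, 58.7 at day 21 and 36.6 in the control, and Igtp 44.5 at day 4, 29.3 at day 21 and 26.4 in the control. Irf1, a transcription factor of that response, had 78.1 at day 4, 93.6 at day 21 and 50.5 in the control. In the endothelial-poor members the median was 0.53. MHC class I genes differed little at day 4 (median 0.11) and were lower at day 21 (median -0.29, 12 of 14 below 0, none past 2-fold), with H2-D1, a classical class I heavy chain, at 4203 at day 4, 2596 at day 21 and 3878 in the control.

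Set against day 4 directly, the day 21 members had 772 of 11543 genes 2-fold or more higher (6.69%) and 549 lower (4.76%), 1321 in all (11.4%). The 5 highest log2 ratios were 4.95 for Serpina3n, 4.89 for Itih4, 4.87 for Cyr61, 4.17 for Selp and 4.10 for Rab3b. The 5 lowest were -4.12 for Zbtb16, -3.50 for Cyp26b1, -2.93 for Fam13a, -2.54 for Qpct and -2.45 for Ifit3b. Fam13a had 2.59 CPM at day 21 and 21.3 at day 4. Immediate early genes had a median of 1.54, with 17 of 22 that were 2-fold or more higher. Type I interferon-stimulated genes had -0.92, with 13 of 30 lower. Of those 13, 1 stood under 0.5 of the level in the other barcodes. Steap4 and Angptl6 stood at 0.83 and -1.69.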

How the data were processed

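Single liver cells were measured in 3 droplet libraries (3′ chemistry), 1 per group, grouped by the sample titles. The authors deposited raw counts of UMIs for 31053 genes per barcode, made with 10x Genomics software 3.1.0 per the file headers and on mm10 per the submitters' processing notes. No barcode held fewer than 500 UMIs. Further steps of the authors are not stated. The gene lists and members were chosen with earlier results of these data known, and no list is independent support. From the deposited counts, UMIs of the members were summed per library and divided by their total (counts per 1000000 UMIs, CPM). Log2 ratios have 0.5 counts added and exact conditional binomial 95% intervals; genes needed 20 UMIs over both libraries. Shares carry exact Clopper-Pearson intervals, ratios of shares a log risk ratio interval. With 1 library per group there is no test. Median depth was 5629 to 7823 UMIs per member, which limits genes of low level. Sinusoidal endothelial barcodes held at least 2 of Stab2, Clec4g and Kdr with a sum of 5 or more above the stellate sum. Kupffer barcodes held at least 2 of Clec4f, Vsig4, Timd4 and Cd5l with a sum of 5 or more above both. The named genes were the 10 highest and 10 lowest ratios for each comparison with the control and 5 each for day 21 against day 4, under the criteria in the text. Genes of mitochondria, ribosomal proteins, haemoglobins and immunoglobulins, unnamed genes, rule genes and markers of other cells were left out. From each list up to 4 members with the largest ratios and those that define it were eligible; the further list members given as examples (such as Cxcl12 and the zonal genes) were chosen after their values were seen. Mx2 and Clec4m were not found under those symbols. Of the gene IDs, 30934 matched GENCODE M21. The computation was tested on simulated data. Alternatives changed the mitochondrial limit, marker thresholds, doublets, depth, weighting, scaling, count minimum and added count; limiting the members to endothelial-poor ones and removing barcodes with Kupffer, T or B genes were added after the data had been seen. Doublets were scored with Scanpy 1.11.5 and tables made with pandas 2.3.3, SciPy 1.17.1 and NumPy 2.4.6 under Python 3.11.15, and figures with matplotlib 3.10.9. Promoters of 1 chromosome were not searched.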

Additional observations from a re-analysis of the deposited data

Results flagged for a closer look

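Rab3b, a small GTPase of vesicle release, was past 2-fold in opposite directions at the 2 times, with a log2 ratio of -1.06 at day 4 and 3.03 at day 21 against the control (CPM of 2.54 at day 4, 44.9 at day 21 and 5.401 in the control). Endothelial barcodes held 7.23 at day 4, 68.2 at day 21 and 10.7 in the control and the endothelial-poor members 0 at day 4, 1.54 at day 21 and 0.592 in the control. Rasd1, a Ras-related protein induced by glucocorticoids, likewise had -1.87 and 1.65 (CPM of 5.66 at day 4, 66.01 at day 21 and 20.98 in the control), with 27.6 at day 4, 179.7 at day 21 and 42.6 in the control in endothelial barcodes and 0.491 at day 4, 13.9 at day 21 and 7.699 in the control in the endothelial-poor members. The difference between the times was not tested for either gene, and both comparisons use the same control library.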

How the results depend on the processing

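No paired analysis was possible because each group had 1 library, and with 1 library none could be left out. The day 21 share of stellate barcodes was 0.262 of the control share with at most 10% mitochondrial UMIs, 0.203 for endothelial-poor members and 1.03 per endothelial barcode; against day 4 it was 0.266, 0.196 and 0.867, and 0.363 with no mitochondrial limit. Counts of genes 2-fold or more higher and lower moved with the count minimum: with 50 or more UMIs they were 86 and 82 at day 4 against control, 567 higher at day 21 against control, and 450 and 356 at day 21 against day 4; with 1 or more they were 1639 and 1883, 2745 and 1738, and 2595 and 1509. With 5 counts added, 114 were higher at day 4, and 314 (against control) and 278 (against day 4) lower at day 21. Thinning to 1000 UMIs gave 442 higher and 372 lower at day 21 against control and 415 and 343 against day 4; fewer counts then pass the minimum. The mean over barcodes gave 316 higher at day 4, and the endothelial-poor members 873 lower at day 21 against day 4. Directions reversed for lists near 0: growth factor and hormone receptors at day 4 (0.0030 with 5 markers and 10 UMIs, 0.018 with and 0.017 without the neutrophil list when barcodes of other cells were removed) and at day 21 (0.046 without Scrublet calls), and complement at day 4 (-0.042 thinned, -0.029 as the mean over barcodes). They reversed for genes of few barcodes: Igfbp5 with 5 markers and 10 UMIs (-1.80 at day 4, -1.41 at day 21, 0.39 for day 21 against day 4) and thinned (-0.40 at day 21), Igfbp6 at day 4 (-0.34 thinned, -0.10 as the mean over barcodes), and Top2a at day 4 (0.55 with barcodes of Kupffer, neutrophil, T or B genes removed, 0.54 with neutrophil genes ignored). In the endothelial-poor members Rsad2 stood at 0.71 at day 21 against control, and Cxcl9 at 1.27 and Hspa1b at -0.90 for day 21 against day 4; the cause was not tested. Removing barcodes with neutrophil genes left 14 members at day 21 and gave no day 21 value. Of the gene values under all alternatives, 3510 stayed within their counting interval, 615 moved outside it and 11 reversed. No scaling moved the median of all genes by more than 0.1.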
